A study of Rattus norvegicus with 60 samples.

Results

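The change in transcript levels from postnatal day 14 (P14) to P21 was examined in the prefrontal cortex of male rats of the HR line, selectively bred on a Sprague-Dawley background. It rests on the 5 arrays labelled HR P21 and the 5 labelled HR P14, chosen by line, region and age, which are 10 of the 60 samples of the series. The other samples are HR rats at P7, rats of the sister line LR at the same 3 ages, and the amygdala of both lines. HR and LR are known as lines bred for high and low locomotor response to novelty, and no drug, surgery or transgene is named for any group. Per the labels, frozen brains were cut into alternating thin and thick sections, and the thin, stained sections guided the dissection of the thick ones. The protocol text of these prefrontal samples speaks of dissected amygdala, whereas their region and source labels say prefrontal cortex, and the labels were followed. Total RNA was labelled as cDNA with the dye Cy3 and hybridised to NimbleGen arrays, with each array holding 1 sample.

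The third postnatal week is a period in which the rodent cortex matures quickly. Oligodendrocytes wrap axons in myelin, fast-spiking interneurons begin to make the calcium buffer parvalbumin, receptor and channel subunits are exchanged for adult forms, and genes of axon growth and cell division recede. Energy metabolism shifts over the same weeks towards mitochondrial respiration, and pups pass from their mother's milk to solid food.

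The deposited values were intensity on a linear scale, normalized by RMA per the submitters' processing notes, for 18564 transcript rows. Differences below are log2 P21 minus log2 P14 in HR, with the standard error (SE) of the limma fit over all 6 prefrontal groups, n = 5 arrays per group. The adjusted p is limma's, corrected by Benjamini-Hochberg over all rows, and a row was called at an adjusted p under 0.05. The median row had an intensity of 74.0 and the control row lay between 45.6 and 54.6, so values near 50 to 75 are close to background. Values per array are listed in the order of the array numbers in the column headers, 11 to 15 for HR P14 and 1 to 5 for HR P21.

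Arrays of the HR line varied more among themselves than those of LR. The median row had a within-group SD of 0.443 (log2) in HR P14 and 0.401 in HR P21, against 0.355 and 0.344 in LR P14 and LR P21. Correlations between arrays of the same group ran from 0.780 to 0.956 in HR P14 and from 0.842 to 0.950 in HR P21. The first principal component of the deviations from group means held 27.8% of the within-group variance. On it, HR P14 arrays 11 and 12 scored 56.5 and 62.8, whereas arrays 13, 14 and 15 scored -41.9, -13.9 and -63.6. HR P21 arrays 1 to 5 scored -50.7, -11.8, 17.7, -9.2 and 54.

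Arrays 11 and 12, labelled HR P14, also stood with the arrays labelled P21 on the rows that separate the ages in LR. The LR arrays gave 154 rows called higher and 287 called lower at P21 than at P14. The mean log2 intensity of the former minus that of the latter, here the LR-step score, was 0.601 and 0.769 on arrays 11 and 12. It was -1.79, -1.43 and -2.18 on arrays 13 to 15 and 0.069, 0.290, 0.529, 0.041 and 1.11 on the HR P21 arrays. The LR P14 arrays ran from -2.39 to -0.998 and the LR P21 arrays from 0.831 to 2.07, as the choice of rows in those arrays requires. Arrays 11 and 12 therefore lay inside the range of the HR P21 arrays and outside that of every other P14 array. The array number moved with this score. The 12 arrays numbered 1 to 12 spanned 0.041 to 2.07 and the 18 numbered 13 to 30 spanned -2.39 to -0.592, without overlap. All P21 arrays carry numbers 1 to 10, and in LR all P14 arrays carry 16 to 20, so within LR age and number cannot be told apart. The sources used here do not say what the numbers stand for. For the rows named below, values without arrays 11 and 12 are given where leaving them out changed the call or the sign or moved the difference by over 1.5 times, and the setting restricted to arrays 1 to 12 compares the HR P21 arrays with arrays 11 and 12 only. Both settings were chosen after these scores were seen. Since arrays 11 and 12 were picked out by values that move with the labelled age, calls made without them describe how far the result turns on these arrays and do not support a difference between the ages.

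**Figure D1:**
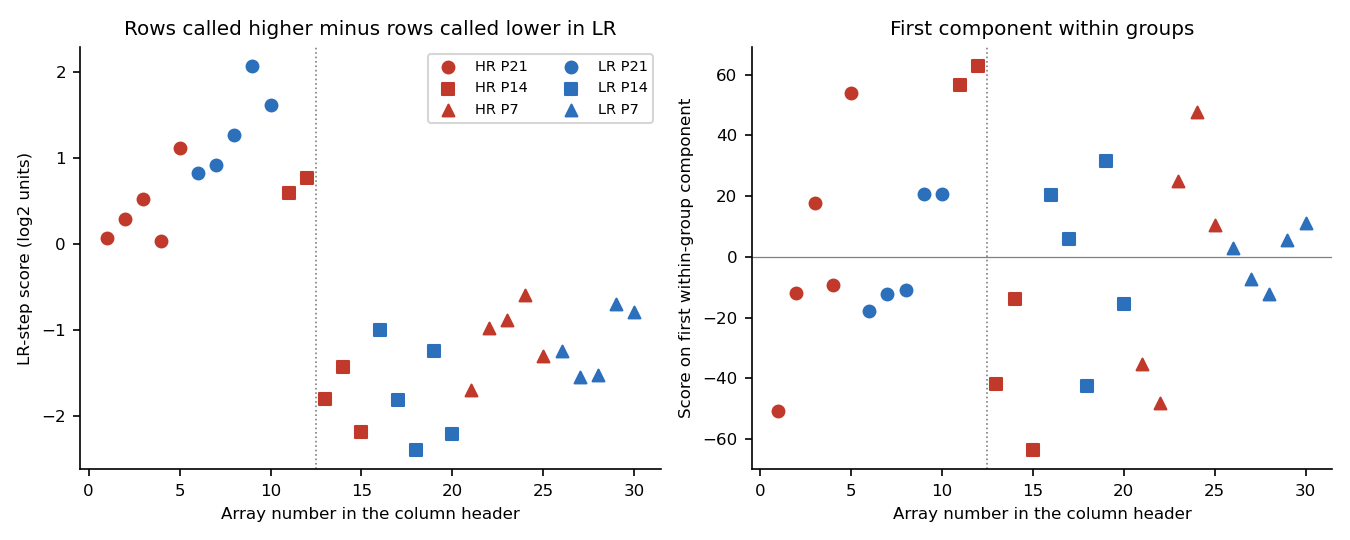
Left, the LR-step score of each of the 30 prefrontal arrays (log2 units) against the array number in the column header; right, the score on the first within-group component. Colours give the line, symbols the age, and the dotted line separates arrays 12 and 13; the HR P14 arrays 11 and 12 score 0.601 and 0.769 at left, among the arrays labelled P21.

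With all 10 arrays, 0 of 18564 rows (0%) were called between HR P21 and HR P14. The smallest adjusted p was 0.0579, for Cox6b2. At an unadjusted p under 0.05 there were 1825 rows (9.83%), of which 997 were higher (5.37%) and 828 lower (4.46%) at P21. At an adjusted p under 0.1, a threshold added after the values were seen, 8 rows were higher (0.0431%) and 19 lower (0.102%). The 5 arrays of each age did not overlap for 68 rows higher (0.366%) and 106 rows lower (0.571%) at P21. The median difference over all rows was 0.02. When arrays 11 and 12 were left out, 1001 rows were called (5.39%), 562 higher (3.03%) and 439 lower (2.36%). With arrays 1 to 12 alone 0 rows were called (0%), and 2133 (11.5%) had an unadjusted p under 0.05. Leaving out array 4 (HR P21) gave 112 called rows, array 12 gave 55, array 11 gave 42 and array 15 gave 1. Whether arrays 11 and 12 hold the tissue their labels give was not tested.

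The labelled tissue was checked through a defining marker. Slc17a7, the vesicular glutamate transporter of cortical excitatory neurons, lay at 42.2 to 102 at P14 and 43.7 to 147 at P21. These ranges reach down to the control row, so the regional label could not be checked through it. The striatal receptor Drd2 (38.7 to 80.5 and 45.1 to 71.6) and the hypothalamic peptide gene Pmch (43.2 to 76.3 and 47.1 to 67.4) were near background as well. These dim genes do not stand for their lists. By group mean, 3 of 15 measured cortical excitatory genes lay below the median row at both ages. So did 2 of 9 striatal genes and 2 of 11 thalamic and hypothalamic genes. The regional label was not checked through the brighter members. Ttr, which the choroid plexus makes in great amounts, was at 1617, 654, 1131, 2317 and 619.9 on the P14 arrays and at 121, 45096, 104, 185 and 1481 on the P21 arrays. Array 2 stood far above the others for Ttr. In bulk tissue, fewer cells of a type and less RNA per cell cannot be told apart.

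Parvalbumin, Pvalb, had the largest difference on the higher side among named rows whose ages did not overlap. Its intensity was 286, 209, 137, 151 and 75.4 at P14 and 366, 301, 1103, 798 and 1344 at P21. Every P21 array lay above every P14 array, with arrays 11 and 12 the highest of the P14 arrays. The difference was 2.09 ± 0.44 (adjusted p = 0.079), 2.52 without arrays 11 and 12 (adjusted p = 0.00374) and 1.44 with arrays 1 to 12 alone (unadjusted p = 0.0271). At P7 its mean intensity was 67.8, near the control row. In LR it rose by 2.40 from P14 to P21 (adjusted p = 0.00408).

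The myelin landmarks Mobp and Mbp overlapped between the ages. Mobp, a myelin protein gene, was at 3504, 2242, 3197, 1821 and 2381 at P14 and 968, 8407, 6011, 3894 and 7332 at P21, where array 1 was the lowest of all 10 and the other P21 arrays exceeded every P14 array. Its difference was 0.74 ± 0.55 (adjusted p = 0.714). A second, dimmer Mobp row differed by 1.12 (unadjusted p = 0.0606). In LR Mobp differed by 1.97 (adjusted p = 0.0513). Mbp, myelin basic protein, was at 564, 653, 451, 296 and 163 at P14 and 130.0, 398, 453, 884 and 355 at P21, and the groups overlapped. The Mbp difference was -0.02 ± 0.43 (95% interval -0.89 to 0.85, adjusted p = 0.992), and it was 0.43 without arrays 11 and 12 (adjusted p = 0.694). Its 3 further rows lay between -0.12 and 0.09. In LR Mbp differed by 1.23 (adjusted p = 0.108), and the HR minus LR difference of the steps had an unadjusted p of 0.0464 (adjusted p = 0.724).

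Sst, the somatostatin gene of another interneuron class, was at 14150.4, 6904, 7943, 5918 and 4638 at P14 and at 13289, 2169, 25443, 16665 and 21326 at P21. The P21 array 2 was the lowest of all 10 arrays and array 11 was the highest at P14. The difference was 0.72 ± 0.46 (adjusted p = 0.638).

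Gap43 and Tubb3, genes of immature neurons, had already come down between P7 and P14. Gap43, a protein of growing axons, was at 298, 453, 47.4, 190.1 and 83.4 at P14 and 70, 146, 217, 93.6 and 374 at P21, and differed by -0.08 ± 0.66 (adjusted p = 0.984). That value without arrays 11 and 12 was 0.73 (adjusted p = 0.642), of the opposite sign. From P7 to P14 in HR, Gap43 fell by 3.17 (adjusted p = 0.0285) and Tubb3, neuronal beta-tubulin, fell by 2.32 (adjusted p = 0.0429), 2 of 51 rows called in that step (0.275%), which shares the HR P14 arrays with the comparison described here. From P14 to P21 Tubb3 differed by -0.17 ± 0.52 (adjusted p = 0.957), and by 0.11 without arrays 11 and 12 (adjusted p = 0.949). It was at 274, 236, 132, 212 and 142 at P14 and 98.4, 188, 207, 95.4 and 399 at P21.

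Among the remaining landmarks, Dcx, Grin2a, Slc12a5 and Gad1 were near background, which limits what their small differences show. Mean intensities at P14 and P21 were somewhat higher for Slc12a2 (82.3 and 97.3) and Bdnf (100.5 and 122.1). The microtubule protein gene Dcx (0.16 ± 0.27), the glutamate receptor subunit Grin2a (0.16 ± 0.21), the chloride exporter Slc12a5 (-0.20 ± 0.21) and importer Slc12a2 (0.24 ± 0.27), and the GABA-making enzyme Gad1 (-0.06 ± 0.21) had adjusted p between 0.831 and 0.964. Bdnf, the neurotrophin, was at 153, 115, 89, 76.3 and 86.1 at P14 and 103, 144, 92.1, 116 and 172 at P21, a difference of 0.28 ± 0.21 (adjusted p = 0.715) that was 0.55 without arrays 11 and 12 (adjusted p = 0.181) and -0.12 with arrays 1 to 12 alone. The differences of Slc12a5, Slc12a2 and Gad1 were -0.32, 0.45 and -0.02 without arrays 11 and 12. Of the 16 landmarks listed, 14 were matched to rows, and 0 were called with all arrays. Once arrays 11 and 12 were left out, 2 of the 14 were called, Pvalb among them, against 5.39% of all rows.

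**Figure D2:**
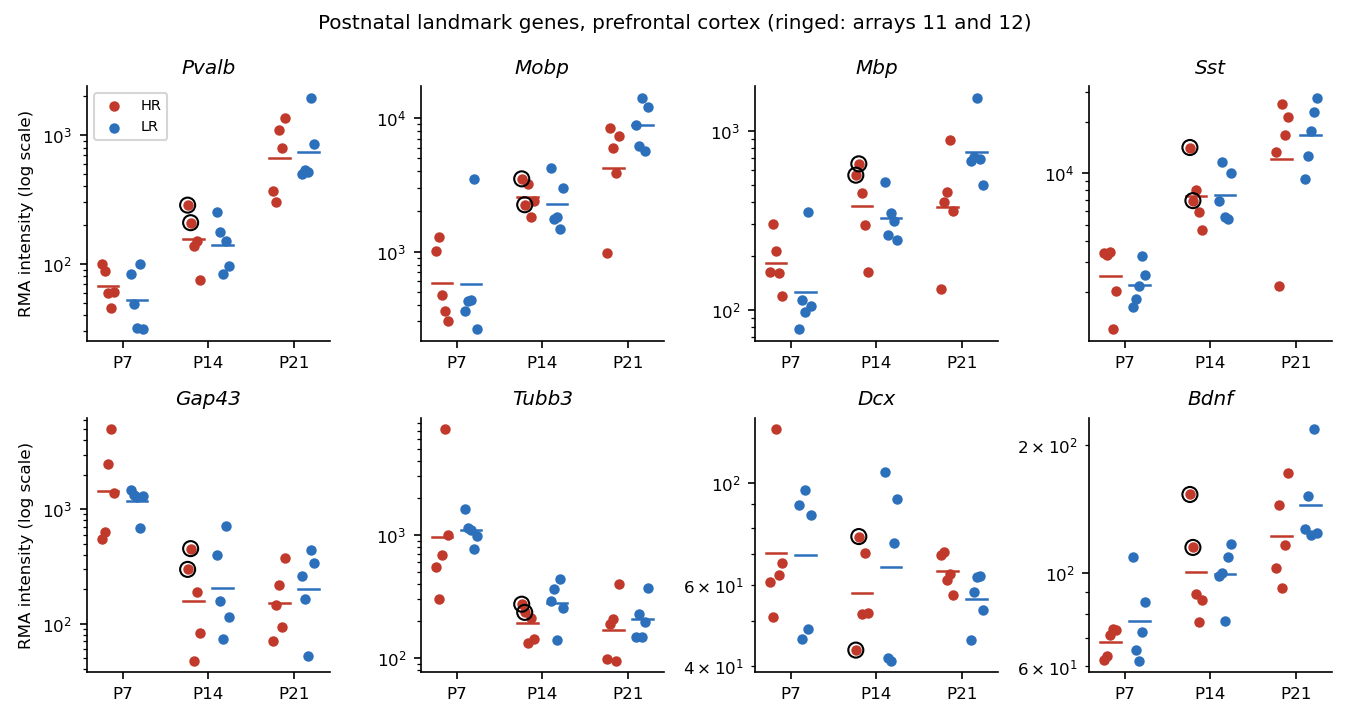
RMA intensity (log scale) of 8 landmark genes in every prefrontal array, by age (x axis) and line (colour), with group geometric means as bars and arrays 11 and 12 ringed. In HR, Pvalb separates P14 from P21 in all 10 arrays (difference 2.09, adjusted p = 0.079), while Gap43 (-0.08) and Tubb3 (-0.17) overlap after their fall from P7 to P14.

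The 3 sequences below are shown because they stand upstream of the genes whose rows best separated the ages: Pvalb and Septin4 on the higher side and Cox6b2 on the lower. Each is the 150 bases before the annotated start in RefSeq (build GRCr8), 5′ to 3′ on the gene's strand, with matches to 3 short motifs in capitals. Pvalb is at chr7:111666290-111666439 (minus strand), Septin4 at chr10:72863864-72864013 (plus strand) and Cox6b2 at chr1:78122721-78122870 (plus strand).
Pvalb: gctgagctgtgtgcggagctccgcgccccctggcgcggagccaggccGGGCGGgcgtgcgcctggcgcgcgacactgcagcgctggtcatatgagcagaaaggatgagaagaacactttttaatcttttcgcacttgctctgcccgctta
Septin4: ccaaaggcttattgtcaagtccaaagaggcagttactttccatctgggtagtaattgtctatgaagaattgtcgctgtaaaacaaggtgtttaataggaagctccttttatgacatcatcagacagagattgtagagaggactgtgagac
Cox6b2: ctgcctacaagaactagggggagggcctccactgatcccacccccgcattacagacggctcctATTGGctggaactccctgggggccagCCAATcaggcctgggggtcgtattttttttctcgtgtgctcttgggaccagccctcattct
The motifs, searched on both strands, were the TATA box (letters TATAAA), the GC box (letters GGGCGG) and the CCAAT box (letters CCAAT). In the Pvalb window the GC box matched at 1 place, in the Cox6b2 window the CCAAT box matched on each strand (2 matches), and the Septin4 window held 0 of the 3 motifs. Of all 33469 promoters, 8.0% held the TATA box, 26.02% the GC box and 23.5% the CCAAT box in the same window. A match is a description of letters only.

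The named rows without overlap on the higher side included, besides Pvalb, genes of oligodendrocytes and several enzymes. Septin4, a septin of the membrane cytoskeleton, was at 7042, 6318, 3868, 4264 and 1408 at P14 and 9329, 16455, 12713, 7513 and 21976 at P21. Its difference was 1.66 ± 0.36 (adjusted p = 0.079), 2.15 without arrays 11 and 12 (adjusted p = 0.00189) and 0.92 with arrays 1 to 12 alone. A second, dimmer Septin4 row differed by 0.31 (unadjusted p = 0.379), so the rows of this gene disagree in size.

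Gsta1, a glutathione transferase, was at 325, 232, 175, 257 and 258 at P14 and 675, 1155, 633, 462 and 1232 at P21. Array 11 was the highest of the P14 arrays, and array 12 lay among the others. The Gsta1 difference was 1.67 ± 0.37 (adjusted p = 0.0855), and it was 1.78 without arrays 11 and 12 (adjusted p = 0.0148) and 1.499 with arrays 1 to 12 alone (unadjusted p = 0.00154). In LR it rose by 2.01 (adjusted p = 0.00457).

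Car2, carbonic anhydrase 2, which oligodendrocytes make, was at 146, 164, 201, 102 and 156 at P14 and 289, 310.2, 357, 322 and 246 at P21. Its difference of 1.01 ± 0.22 (adjusted p = 0.0855) was nearly the same without arrays 11 and 12 (1.04, adjusted p = 0.0197) and with arrays 1 to 12 alone (0.97, unadjusted p = 0.00153). Cldn11, the claudin of myelin tight junctions, was at 71.8, 72.8, 114, 92.5 and 87.5 at P14 and 115, 133, 213, 146 and 430.3 at P21 (1.08 ± 0.34, adjusted p = 0.209). Tmem125, a membrane protein gene, was at 102, 84.9, 41.1, 110.3 and 54.3 and 139, 175, 343, 137 and 710.0 (1.71 ± 0.43, adjusted p = 0.114, 1.94 with adjusted p = 0.0187 without arrays 11 and 12).

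Sec11c, a subunit of the signal peptidase that trims secreted proteins, was at 5834, 6172, 3831, 4587 and 872 at P14 and 16989.7, 8785, 8185, 6952 and 14754 at P21. Array 15 was low against the other P14 arrays. The difference was 1.57 ± 0.38 (adjusted p = 0.114), 2.07 without arrays 11 and 12 (adjusted p = 0.00385) and 0.80 with arrays 1 to 12 alone (unadjusted p = 0.0387). Got1, the cytosolic aspartate transaminase (1.23 ± 0.33, adjusted p = 0.149), Dram2, a lysosomal membrane protein (1.31 ± 0.32, adjusted p = 0.114), and Hs3st1, a heparan sulphate sulphotransferase (1.32 ± 0.39, adjusted p = 0.191), completed the 10 named on the higher side. In that order, their mean intensities were 65.1, 53.4 and 48.3 at P14, close to background, and 153, 132 and 120 at P21. Got1 was at 1.60 without arrays 11 and 12 (adjusted p = 0.0103) and Dram2 at 1.44 (adjusted p = 0.0202) in the same setting. Of these 10, which were chosen by non-overlap in the same arrays, 8 were called without arrays 11 and 12, against 5.39% of all rows.

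Rows without overlap on the lower side were led by Cox6b2, a subunit of cytochrome c oxidase known mainly from testis. It was at 3538, 3859, 5040.4, 3968 and 2086 at P14 and 363, 831, 1044, 1276 and 477 at P21. The highest P21 array stood below the lowest P14 array, and arrays 11 and 12 lay in the middle of the P14 group. Its difference was -2.31 ± 0.40 (95% interval -3.13 to -1.48, adjusted p = 0.0579). It was -2.27 without arrays 11 and 12 (adjusted p = 0.00615) and -2.36 with arrays 1 to 12 alone (unadjusted p = 6.68e-05). In LR Cox6b2 fell by 1.67 (adjusted p = 0.0217). Between P7 and P14 in HR its difference was -0.28 (adjusted p = 0.837).

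Scand1, a small protein with a SCAN domain, was at 4259, 4688, 3639, 3616 and 5353 at P14 and 1007, 2047, 1695, 2883 and 1024 at P21. The groups were apart on all arrays, with array 4 the highest at P21. The difference was -1.42 ± 0.29 (adjusted p = 0.079), -1.37 without arrays 11 and 12 (adjusted p = 0.0161) and -1.49 with arrays 1 to 12 alone. In LR Scand1 differed by 0.17 (adjusted p = 0.8), and the difference between the steps had an unadjusted p of 0.000526 (adjusted p = 0.536). Tmsb10, thymosin beta-10, an actin-binding protein abundant in immature neurons, was at 17795, 15155, 10988, 17295 and 11849 at P14 and 6512, 2824, 10097, 10749 and 7964 at P21 (-1.05 ± 0.26, adjusted p = 0.114).

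The other 7 named on the lower side were copies or pseudogenes of housekeeping genes. They were Atp5mc1l2 (-2.11 ± 0.52), Rpl36l1 (-2.07 ± 0.42), Rps18l4 (-1.65 ± 0.37), Rpl37a-ps5 (-1.39 ± 0.30), Mif-ps1 (-1.30 ± 0.35), Aimp1-ps3 (-1.23 ± 0.31) and Tmem258l3 (-1.16 ± 0.38), with adjusted p from 0.079 to 0.231. Their probes may also bind the parent transcript, so which copy was measured is uncertain. Rows with a provisional or missing symbol (4062) had a median difference of -0.02, and the other 14502 rows one of 0.03. All 7 copies were called without arrays 11 and 12, with differences from -2.49 to -1.43 and adjusted p from 0.00615 to 0.0472. Of the 10 named on the lower side, likewise chosen by non-overlap, 9 were called in that setting, against 5.39% of all rows.

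**Figure D3:**
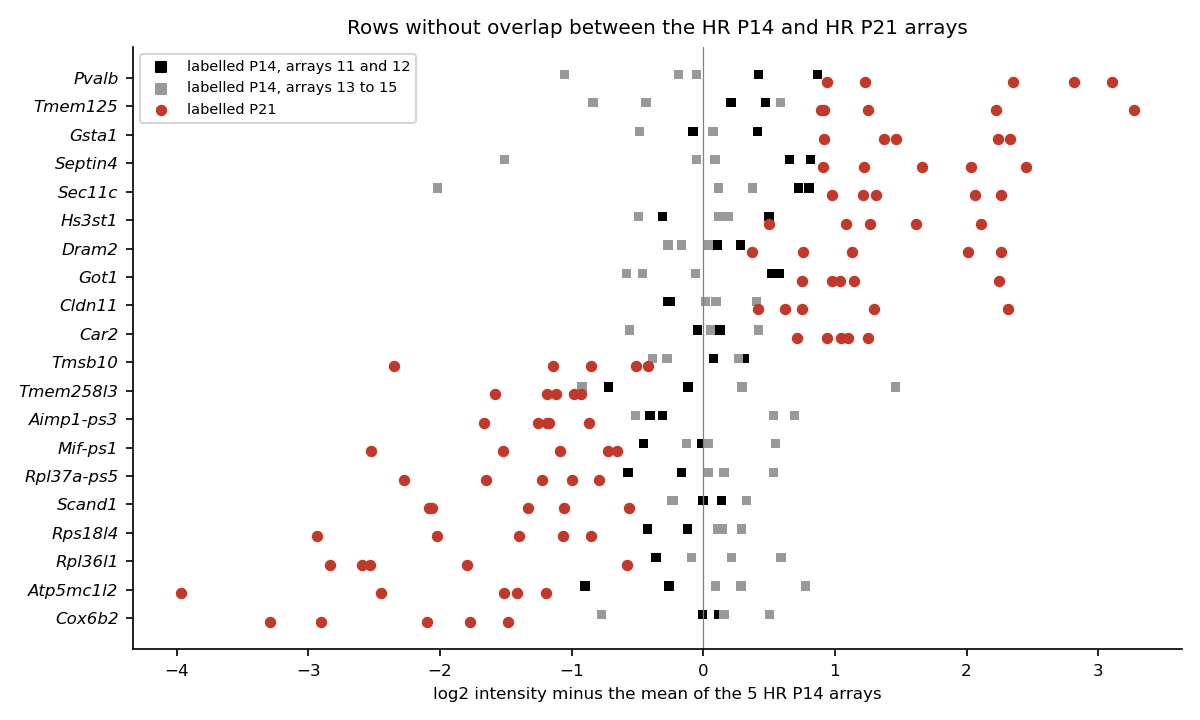
Log2 intensity relative to the mean of the 5 HR P14 arrays (x axis) for the 20 named rows whose HR P14 arrays (squares, with arrays 11 and 12 in black) and HR P21 arrays (circles) did not overlap. Pvalb differs by 2.09 at the top and Cox6b2 by -2.31 at the bottom; non-overlap is what chose these rows.

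Among named rows the 5 largest differences on the higher side and the largest on the lower side belonged to rows whose arrays overlapped, though Cox6b2, Atp5mc1l2 and Rpl36l1, described above, were among the 6 largest on the lower side. Tpt1, translationally controlled tumour protein, an abundant growth-related transcript, was at 781, 2038, 4381, 775 and 192 at P14 and 25249.7, 17075, 11159, 2921 and 18129 at P21. Array 13 exceeded the lowest P21 array, array 4. The difference was 3.58 ± 0.95 (adjusted p = 0.139), 3.80 without arrays 11 and 12 (adjusted p = 0.0396) and 3.26 with arrays 1 to 12 alone (unadjusted p = 0.000224). The copies Tpt1l2 (3.35), Tpt1l1 (3.21) and Tpt1-ps2 (3.06) may share its signal. Emc7, a subunit of a membrane insertion complex, was at 318, 364, 86.7, 94.3 and 41.5 at P14 and 1755, 583, 712, 318 and 2429 at P21 (2.76 ± 0.65, adjusted p = 0.112). Its difference was 3.68 without arrays 11 and 12 (adjusted p = 0.00291) and 1.39 with arrays 1 to 12 alone (unadjusted p = 0.0478). On the lower side, Rps10-ps22 (-2.47 ± 0.65), Rpl11-ps10 (-2.16 ± 0.66) and the vomeronasal receptor V1ra14 (-1.92 ± 0.59) had adjusted p of 0.136, 0.203 and 0.206. V1ra14 was at 269.6, 116, 929, 543 and 5506 at P14 and 191, 267, 138, 138 and 114 at P21, and with arrays 1 to 12 alone it differed by -0.13. All 3, chosen by their size in the same arrays, were called without arrays 11 and 12, against 5.39% of all rows. They were at -3.31, -2.74 and -3.12 in the order named (adjusted p = 0.00575, 0.0269 and 0.00145). With arrays 1 to 12 alone Rps10-ps22 and Rpl11-ps10 were at -1.19 and -1.29.

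Gene lists were described by the number of measured members with an unadjusted p under 0.05 in each direction, set beside 5.37% higher and 4.46% lower over all rows, and by their median difference beside 0.02. In all 30 lists 0 members were called.

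The list of myelin and oligodendrocyte genes held 22 measured members, of which 5 were higher and 1 lower. Its median was 0.09, and 0.18 without arrays 11 and 12. Besides Cldn11, described above, Apod, the lipid-binding apolipoprotein D of oligodendrocytes and astrocytes, was at 286, 100.2, 205, 117 and 61.3 at P14 and 138, 602, 767, 274 and 648 at P21 (1.61 ± 0.48, adjusted p = 0.191, 1.84 with adjusted p = 0.0389 without arrays 11 and 12). In LR Apod rose by 2.85 (adjusted p = 0.002). Among 9 precursor genes 1 was higher and 0 were lower (median 0.23), and among 20 genes of cholesterol synthesis and uptake 1 was higher (median 0.12).

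Interneuron genes had 2 of 20 members higher, Pvalb and Npy, and 0 lower (median 0.20). Npy, the neuropeptide Y gene, was among the brighter rows, at 19886, 14894, 19091, 16054 and 12304 at P14 and 29352, 30654, 34466, 16672 and 31235 at P21. Array 4 lay within the P14 range, and the other P21 arrays were all above it. The difference was 0.77 ± 0.21 (adjusted p = 0.154), 0.83 without arrays 11 and 12 (adjusted p = 0.0452) and 0.68 with arrays 1 to 12 alone (unadjusted p = 0.0314).

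Receptor and channel lists showed few members past an unadjusted p of 0.05. Of 29 glutamate receptor and scaffold genes 1 was higher and 1 lower. Gria1, an AMPA receptor subunit, was at 43.9, 82, 55.8, 81.6 and 61.4 at P14 and 76.3, 130.2, 103, 78.7 and 116 at P21 (0.64 ± 0.22, adjusted p = 0.259), close to background. Shank1, a postsynaptic scaffold, differed by -0.61 ± 0.30 (adjusted p = 0.507), by -1.03 without arrays 11 and 12 (adjusted p = 0.0499) and by 0.01 with arrays 1 to 12 alone. Among 21 ion channels 1 was higher and 1 lower. Kcna1, a potassium channel of axons, was at 835, 1239.9, 725, 882 and 585 at P14 and 692, 6371, 1933, 1259.9 and 2477 at P21 (1.22 ± 0.38, adjusted p = 0.209). Cacna1g, a T-type calcium channel, differed by -0.56 ± 0.25 (adjusted p = 0.46), by -0.87 without arrays 11 and 12 (adjusted p = 0.0577) and by -0.09 with arrays 1 to 12 alone.

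Of 14 GABA genes 0 were higher and 0 lower (median 0.03), and the smallest p belonged to the receptor subunits Gabrd (0.34 ± 0.20, adjusted p = 0.611) and Gabbr1 (0.29 ± 0.26, adjusted p = 0.786). Of 16 genes of vesicle release the count was 0 in either direction (median 0.13), with the complexins Cplx1 (-0.95 ± 0.48, adjusted p = 0.523) and Cplx2 (0.93 ± 0.56, adjusted p = 0.614) at the smallest p and of opposite sign. They were at -1.53 and 1.60 without arrays 11 and 12 (adjusted p = 0.0827 and 0.127), and at -0.09 and -0.07 with arrays 1 to 12 alone. Among 22 activity-driven genes 2 were higher, the phosphatase Dusp6 (0.53 ± 0.24, adjusted p = 0.451) and Btg2 (0.48 ± 0.23, adjusted p = 0.508), and the median was 0.00.

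In the list of immature neurons and axon growth 1 of 27 members was higher and 2 were lower (median 0.01). Both lower members were Sox factors of newborn neurons. Sox11 was at 64.6, 74.1, 149.7, 83.3 and 62.8 at P14 and 54, 41.6, 38.8, 61.4 and 34 at P21, and its groups did not overlap (-0.87 ± 0.27, adjusted p = 0.209, -1.04 with adjusted p = 0.0497 without arrays 11 and 12). The P21 values of Sox11 were at or near background, which limits what this difference shows. Sox4 was at 916, 1874, 553, 599 and 172 at P14 and 62, 481, 309, 611 and 274 at P21 (-1.20 ± 0.49, adjusted p = 0.383). Its highest values were on arrays 11 and 12, and without them it differed by -0.49 (adjusted p = 0.659). A second, dimmer Sox4 row differed by -0.29 with all arrays (unadjusted p = 0.267), so the rows of this gene disagree in size. Among 17 genes of cell division 1 was higher and 1 lower (median -0.12).

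Astrocyte genes had the second highest list median. Of 19 measured members 3 were higher and 0 lower, and the median was 0.37, 0.49 without arrays 11 and 12 and 0.22 with arrays 1 to 12 alone. Ntsr2, a neurotensin receptor of astrocytes, was at 744, 631, 461, 374 and 311 at P14 and 859, 2384, 1244, 714 and 2046 at P21. Array 4 was the only P21 array inside the P14 range. The difference was 1.44 ± 0.38 (adjusted p = 0.141), 1.79 without arrays 11 and 12 (adjusted p = 0.014) and 0.92 with arrays 1 to 12 alone (unadjusted p = 0.0392). Sparcl1, a matricellular protein that astrocytes secrete, was at 676, 545, 184, 202 and 62.4 at P14 and 561, 3101, 1195, 217 and 3002 at P21 (2.13 ± 0.72, adjusted p = 0.246). The Sparcl1 difference was 3.005 without arrays 11 and 12 (adjusted p = 0.0215) and 0.81 with arrays 1 to 12 alone (unadjusted p = 0.311).

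Among 12 microglial genes 1 was higher, Ctss, a lysosomal protease. Ctss was at 483, 423, 190.3, 289 and 87.5 at P14 and 419.6, 1489, 1692, 455 and 3555 at P21 (2.15 ± 0.52, adjusted p = 0.114, 2.72 with adjusted p = 0.00665 without arrays 11 and 12). Csf1r, the growth factor receptor on which microglia depend, differed by 0.37 ± 0.28 (adjusted p = 0.719) and by 0.16 without arrays 11 and 12 (adjusted p = 0.846). Of 14 genes of endothelium and mural cells 1 was higher, the adhesion protein gene Esam (0.68 ± 0.25, adjusted p = 0.315), which was at 0.98 without arrays 11 and 12 (adjusted p = 0.0257) and at 0.22 with arrays 1 to 12 alone. Cldn5, the claudin of brain endothelium, was at 596, 440.0, 41.1, 182 and 111 at P14 and 54, 404, 1036, 128 and 1799 at P21 (0.92 ± 0.77, adjusted p = 0.759), highest on arrays 3, 5, 11 and 12, the arrays among these 10 that scored above 0 on the first component. It was at 1.90 without arrays 11 and 12 (adjusted p = 0.204) and at -0.55 with arrays 1 to 12 alone.

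Of 9 measured blood genes 2 were higher and 0 lower (median 0.34). Their summed intensity was 84091 to 103306 at P14 and 111795 to 138836 at P21, without overlap. The brightest members weigh most in such a sum. Among the other lists, only the growth factor list had sums without overlap, and these were lower at P21. They were 3159 to 4181 at P14 and 2454 to 3132 at P21. Hbb, a beta-globin gene, was at 29041, 22398, 21936, 25643 and 18698 at P14 and 33729, 32363, 35609, 47220.1 and 31512 at P21 (0.62 ± 0.27, adjusted p = 0.454), and Hbb-b1 differed by 1.27 ± 0.47 (adjusted p = 0.315), by 1.84 without arrays 11 and 12 (adjusted p = 0.0307) and by 0.42 with arrays 1 to 12 alone. The part of blood content in the other differences was not tested.

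Genes of energy metabolism had list medians of 0.35 and above. Of 50 genes of oxidative phosphorylation 17 were higher and 3 lower (median 0.35), and of 34 genes of glycolysis or the citric acid cycle 7 were higher and 0 lower (median 0.47). These medians moved with the arrays used. They were, without arrays 11 and 12, 0.69 and 0.77, and with arrays 1 to 12 alone -0.10 and 0.05. The energy lists also loaded on the first component, with a median member at the 83.6th and 92.6th percentile of all rows.

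Atp5pb, a subunit of ATP synthase, was at 1877, 2428, 704, 1159 and 406 at P14 and 6089, 3639, 2931, 1829 and 9719 at P21 (1.92 ± 0.52, adjusted p = 0.149). Arrays 13 to 15 were the 3 lowest of all 10. Ndufa9, a subunit of respiratory complex I (1.05 ± 0.33, adjusted p = 0.212), Pdhb, of the pyruvate dehydrogenase complex (1.24 ± 0.43, adjusted p = 0.264), and Sucla2, of succinate-CoA ligase (1.56 ± 0.44, adjusted p = 0.172), had the other smallest p. All 4, chosen by the smallest p in the same arrays, were called without arrays 11 and 12. They were at 2.57, 1.52, 1.83 and 2.25 in the order named (adjusted p from 0.00487 to 0.0171). In that setting 13 of 50 genes of oxidative phosphorylation and 3 of 34 of glycolysis or the citric acid cycle were called, against 5.39% of all rows. With arrays 1 to 12 alone these 4 differed by 0.94, 0.35, 0.37 and 0.52, in the order named, with unadjusted p from 0.0962 to 0.421.

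Ribosomal protein genes went both ways. Of 62 measured 8 were higher and 8 lower, with a median of 0.07, 0.21 without arrays 11 and 12 and -0.43 with arrays 1 to 12 alone. Rps29 was at 22468, 30074, 33176, 26891 and 24269.7 at P14 and 11705, 13364, 12622, 23642 and 6284 at P21 (-1.13 ± 0.28, adjusted p = 0.114, -1.17 with adjusted p = 0.032 without arrays 11 and 12, -1.07 with arrays 1 to 12 alone). Rpl7 was at 21845, 18811, 11765, 10913 and 6053 and 24459.7, 26015, 20548, 19059 and 27095 (0.88 ± 0.26, adjusted p = 0.191, 1.34 with adjusted p = 0.00352 without arrays 11 and 12, 0.20 with arrays 1 to 12 alone). Pseudogenes of ribosomal proteins are many, and the probes may not separate them from the genes.

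HR rats are studied for emotional and stress behaviour, so stress and transmitter genes were listed too. Of 16 genes for glucocorticoid action or stress peptides 1 was higher, Hsd11b1, the enzyme that regenerates active glucocorticoid in tissue. Hsd11b1 was at 112, 148, 138, 101 and 68.9 at P14 and 96.8, 417, 175, 165 and 441 at P21 (1.003 ± 0.36, adjusted p = 0.296), with arrays 2 and 5 well above the rest. Klf9, a target of the glucocorticoid receptor, differed by 0.47 ± 0.24 (adjusted p = 0.523). Of 18 genes of monoamine, acetylcholine and cannabinoid signalling 1 was higher, the cannabinoid receptor Cnr1 (0.57 ± 0.23, adjusted p = 0.378), and the muscarinic receptor Chrm1 differed by -0.40 ± 0.25 (adjusted p = 0.638).

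Growth factor genes, listed because fibroblast growth factors are studied in these lines for their link to temperament, had 0 of 22 measured members higher and 1 lower (median 0.09). The lower member was Igf1, an insulin-like growth factor, at -0.63 ± 0.30 (adjusted p = 0.501). Its difference was -0.37 without arrays 11 and 12 (adjusted p = 0.616) and -1.03 with arrays 1 to 12 alone (unadjusted p = 0.0301), and its 2 further rows differed by -0.13 and -0.20. Fgf2, a growth factor that astrocytes make, was just outside this count, with an unadjusted p of 0.0501. Fgf2 was at 388, 364, 1659.7, 1457 and 1596 at P14 and 590.5, 263, 382, 623 and 351 at P21, and differed by -1.08 ± 0.53 (adjusted p = 0.508), by -1.90 without arrays 11 and 12 (adjusted p = 0.0351) and by 0.16 with arrays 1 to 12 alone (unadjusted p = 0.698). In LR Fgf2 differed by -1.11 (adjusted p = 0.243).

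In the list of collagens and matrix 3 of 17 genes were higher (median 0.30). Col5a2, a fibrillar collagen, was at 39.5, 51, 35.6, 47.6 and 37.2 at P14 and 86.1, 58.6, 75.8, 49.5 and 107 at P21 (0.80 ± 0.23, adjusted p = 0.172), and the matrix cross-linking enzyme gene Lox differed by 0.62 ± 0.22 (adjusted p = 0.299), both within reach of background. The lists of chromatin, heat shock, meninges, choroid plexus, cortical excitatory neurons, striatum, and thalamus and hypothalamus had 1, 1, 0, 0, 2, 0 and 0 higher members and, in the same order, 0, 0, 0, 0, 0, 0 and 0 lower. Their medians lay between -0.10 and 0.27.

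**Figure D4:**
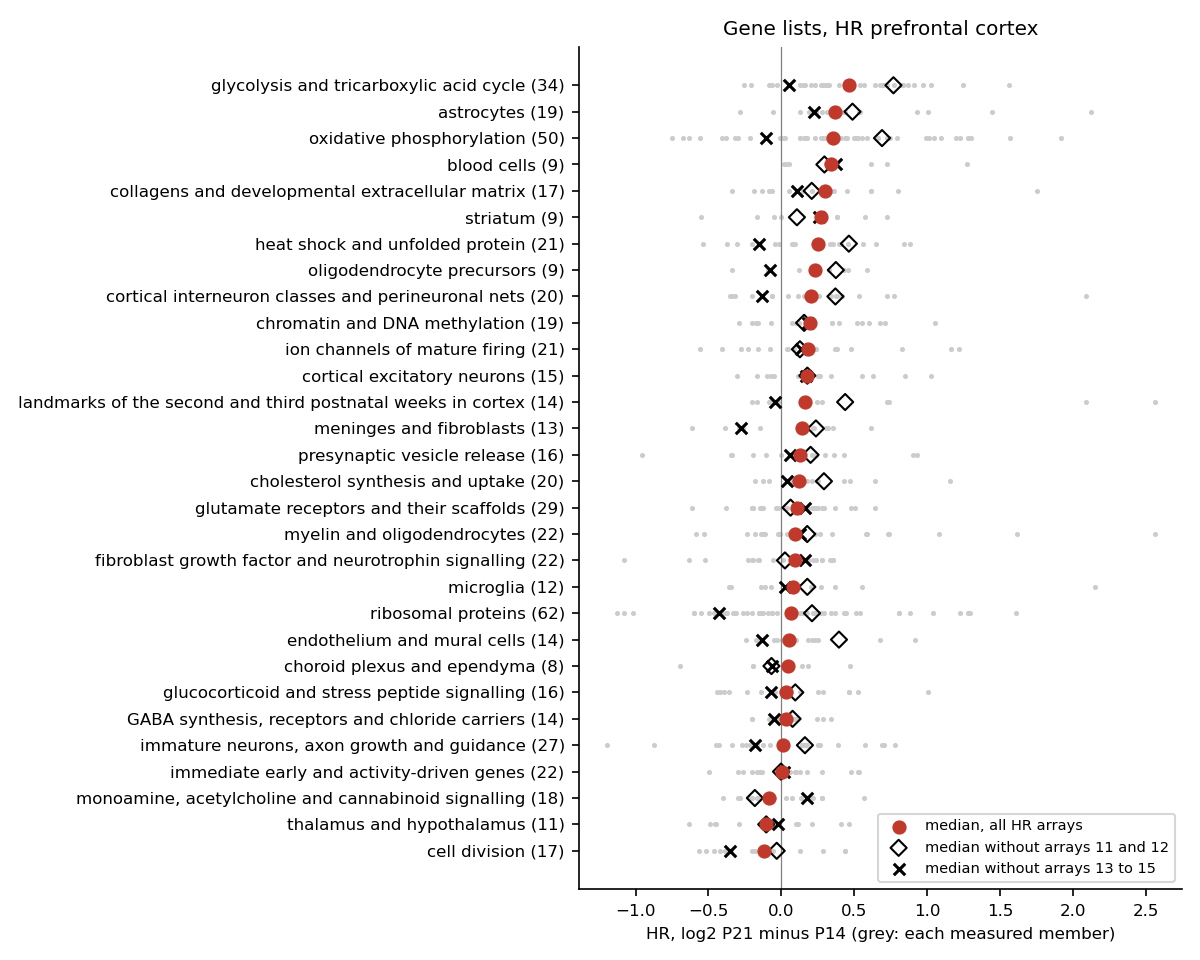
Log2 P21 minus P14 in HR (x axis) for every measured member (grey) of the 30 gene lists, with the median over all HR arrays (red), without arrays 11 and 12 (diamonds) and without arrays 13 to 15 (crosses). The median of oxidative phosphorylation is 0.35, 0.69 and -0.10 in that order, and that of ribosomal proteins 0.07, 0.21 and -0.43.

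The same step in LR was compared to see where HR differed. In LR 441 rows were called (2.38%), 154 higher (0.83%) and 287 lower (1.55%). Rows called in 1 line and not in the other do not differ for that reason, and the test of HR step minus LR step called 0 of 18564 rows (0%, 1262 or 6.8% at an unadjusted p under 0.05), with a smallest adjusted p of 0.184. The lines share no arrays in these steps. Of the 154 rows that rose in LR, 129 were also higher in HR, with a median of 0.44 in HR and 1.41 in LR, and of the 287 that fell in LR, 254 were lower in HR, with medians of -0.57 and -1.51. Among rows not called in LR, 63.5% of those estimated higher and 59.4% of those estimated lower had the same direction in HR. The LR values are those that chose the rows and so run large.

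These counts also turned on arrays 11 to 15. Without arrays 11 and 12, 148 of the 154 and 273 of the 287 had the LR direction in HR, with medians of 0.91 and -1.09. With arrays 1 to 12 alone the counts were 60 of 154 and 114 of 287, with medians of -0.13 and 0.16. Arrays 11 and 12 were picked out by their score on these same rows. The counts in both settings therefore follow largely from that choice, and no conclusion is drawn from them. With the runs of 12 consecutive array numbers as a block, a choice made after the numbers were seen, 10 rows were called in HR and 0 in LR. Age and array number cannot be told apart in the LR step, and in HR arrays 11 and 12 are the only P14 arrays numbered within 1 to 12. The block between the first run and the next is therefore estimated from the HR P14 arrays alone. Its 0 calls in LR do not show a lack of change there.

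**Figure D5:**
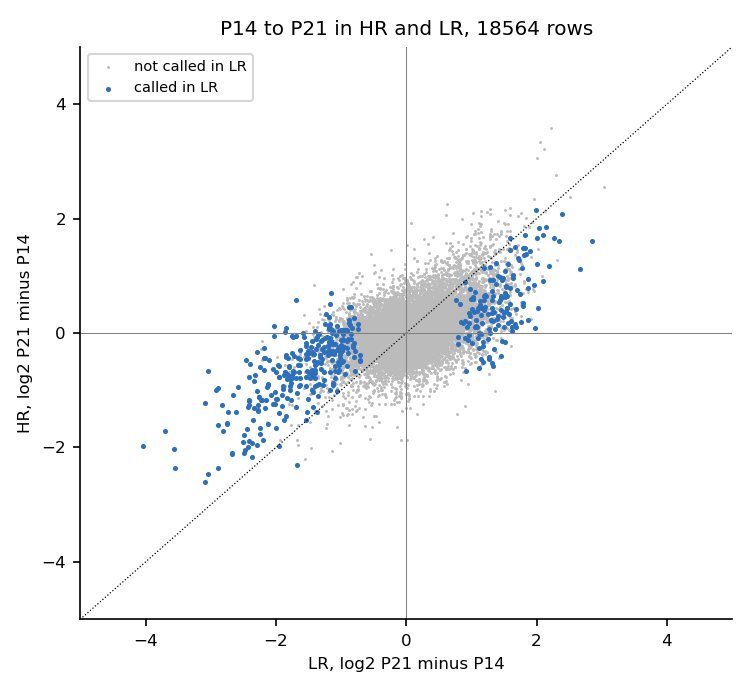
Log2 P21 minus P14 in HR (y axis) against LR (x axis) for 18564 rows, with the 441 rows called in LR in blue and the dotted line marking equal differences. Of the blue rows 129 on the right lie above 0 in HR and 254 on the left lie below 0, with medians of 0.44 and -0.57 over the 154 and 287 blue rows.

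The genes with the smallest p for a step that differs between the lines were Zfp771, Ppp1r15a, Vcf1, Spt1, Gpr62, Or2n1l, Tnfaip8 and Ankrd52, and 0 of them were called (adjusted p from 0.184 to 0.455). Zfp771, a zinc finger gene, was at 321, 346, 218, 301 and 192 at P14 and 203, 124, 212, 196 and 136 at P21 in HR (-0.66 ± 0.21, adjusted p = 0.22), and rose by 0.91 in LR (adjusted p = 0.0175). Vcf1 was at 3432, 3774, 3190.1, 3271 and 1735 at P14 and 894, 1929, 1819, 2116 and 1924 at P21 (-0.84 ± 0.23, adjusted p = 0.152), and differed by 0.61 in LR (adjusted p = 0.132). Ppp1r15a, a stress-induced phosphatase subunit, differed by -0.28 ± 0.25 in HR and rose by 1.34 in LR (adjusted p = 0.00513), and its highest HR values among these 10 arrays were on arrays 11 and 12. Without those arrays its HR difference was 0.08 (adjusted p = 0.921). Spt1 (-0.42 ± 0.27), Gpr62 (0.76 ± 0.28), Or2n1l (0.56 ± 0.18), Tnfaip8 (0.33 ± 0.26) and Ankrd52 (0.07 ± 0.22) had LR differences of 1.27, -0.97, -0.58, -1.23 and -1.15. Without arrays 11 and 12 the HR differences of Spt1, Or2n1l, Tnfaip8 and Ankrd52 were -0.12, 0.72, 0.02 and -0.09, and Or2n1l was called (adjusted p = 0.0283). At P14 the HR mean intensities of Spt1, Gpr62, Or2n1l and Ankrd52 were 74.7, 50.4, 50.8 and 55.2, close to background. The Or2n1l mean at P21 in HR, 74.6, was near the median row. These low intensities limit what the HR differences of these genes show.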

How the data were processed

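The authors deposited intensity values on a linear scale, normalized with RMA per the submitters' processing notes (version not given in the sources used here). The prefrontal table held 18564 transcript rows after 1 control row was left out, and the same values stood in the series' value table for 6 of 6 groups. Column headers give the line, region and age of each array and its number. They also hold a code, whose meaning the sources used here do not state. No replicate number is among them, so arrays were assigned to groups. The first part of the code is shared by HR P14 arrays 13 and 15 and by HR P21 arrays 2 and 4. Across the ages, it is shared by array 12 (HR P14) and array 5 (HR P21). Array 3 (HR P21) and array 14 (HR P14) carry the same full code. The main fit took all arrays as independent, and what a shared code means for their spread was not tested. Symbols came from RefSeq (GRCr8) for 14334 rows and from the file for 3363, and 867 rows had none. Log2 was taken of every value. Limma (3.58.1, R 4.3.3) fitted 6 group means over 30 arrays, and the fit was tested on simulated data. The labels do not tie arrays to animals or litters, so a p-value reflects only the spread among the arrays, whose number limits the precision. Where a gene had several rows the brightest was used.

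The planned rule named the 12 called genes in each direction with the largest difference, which gave 0 genes, the 8 smallest p for HR step minus LR step, all landmarks, and for each list described up to 4 called or else 2 members with the smallest p. Also named, by rules chosen after seeing the data, were 10 genes per direction without overlap and 6 per direction with the largest difference. The comparison, lists and rules were chosen with earlier results of these data known. Replicate numbers in the labels did not pair samples (correlations of same-numbered deviations -0.42 to 0.02). Some genes of the lists are not reported here by name, though the counts and medians of their lists include them.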

Additional observations from a re-analysis of the deposited data

Results flagged for a closer look

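Among 83 named genes and 2 groups each, 10 of 166 pairs had an array set apart from the other 4 by a gap of over 0.71 of the group's range on the log2 scale, where chance gives about 1 in 20. Slc12a5 was at 99.7 on HR P14 array 14, above the others (56.7 to 63.6). Sst was at 2169 on HR P21 array 2, below the others (13289 to 25443). Sec11c was at 872 on HR P14 array 15, below the others (3831 to 6172). Got1 was at 309 on HR P21 array 5, above the others (109.5 to 144). Vcf1 was at 1735 on HR P14 array 15, below the others (3190.1 to 3774). Vcf1 was at 894 on HR P21 array 1, below the others (1819 to 2116). Or2n1l was at 79.7 on HR P14 array 11, above the others (43.4 to 48.6). Npy was at 16672 on HR P21 array 4, below the others (29352 to 34466). Chrm1 was at 47.1 on HR P14 array 12, below the others (74.2 to 84.9). Igf1 was at 179 on HR P21 array 1, below the others (597 to 677).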

How the results depend on the processing

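The 0 calls between HR P21 and HR P14 became 42 after quantile normalization, 1 with rows above the median only, 2 with a variance trend and robust moderation, 10 with runs of array numbers as a block, 27 at an adjusted p under 0.1, 1001 without arrays 11 and 12, and 514 with the first component score as a covariate, which by construction leaves the differences unchanged and lowers the residual variance. The count stayed 0 with array weights (1884 rows at an unadjusted p under 0.05), with only these groups (1217), with median centring (1819), without arrays 13 and 15, and without arrays 11, 12, 13 and 15. Leaving out 1 array at a time gave 0 to 112. The replicate block gave 0 (1742 at an unadjusted p under 0.05, and 932 when fitted in HR P14 and P21 alone), so the replicate block changed no call; in no pair did a sample correlate best with its own number.

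HR step minus LR step kept 0 calls except 29 with the component score and 116 without arrays 13 and 15, and gave 0 for each array left out (0 to 0). The LR step (441) gave 2034 with only its groups, 1482 with array weights, 2319 with the component score, 0 with runs as a block, 1041 without arrays 11 and 12, 984 without arrays 13 and 15, 1171 without all 4, and 103 to 495 leaving out 1 array. Age and run coincide in LR, so the 0 with runs as a block does not show a lack of change there. The HR step from P7 to P14 (51) gave 1 with only its groups, 100 after quantile normalization, 720 with the component score, 446 with runs as a block, 797 without arrays 11 and 12, 0 without all 4, and 16 to 135 leaving out 1 array.

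Some differences changed sign. Not all of these were small with all arrays, where Fgf2 was at -1.08, Cplx2 at 0.93 and Cldn5 at 0.92. Array weights gave Mbp 0.17 and Gap43 0.084. With runs as a block and with arrays 1 to 12 alone, Slc12a2 was at -0.071, Bdnf -0.12, Shank1 0.0052, Cplx2 -0.074, Fgf2 0.16 and Cldn5 -0.55. Without arrays 11 and 12, Mbp was at 0.43, Gap43 0.73, Tubb3 0.11, Ppp1r15a 0.076 and Ankrd52 -0.089. Without arrays 13 and 15, Cldn5 was at -0.054. Without all 4, Mbp was at 0.34, Dcx -0.13, Spt1 0.19, Tnfaip8 -0.12, Csf1r -0.21 and Klf9 -0.26. Leaving out 1 array, Slc12a2 ranged from -0.0057 to 0.45, Gad1 from -0.18 to 0.067, Mbp from -0.33 to 0.36, Gap43 from -0.51 to 0.30, Tubb3 from -0.47 to 0.044 and Ankrd52 from -0.061 to 0.16. The cause of these changes was not tested. Rows near the control intensity limit what small differences show.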
